A study of Homo sapiens with 12 samples.

Results

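T-box genes encode transcription factors that share a DNA-binding domain and set the identity of embryonic tissues. The 10 described here were TBX1, TBX2, TBX3, TBX4, TBX5, TBX15, TBX18, TBX20, TBX21 and EOMES, chosen by name from a RefSeq table of 20037 protein-coding genes. Each was examined over its gene body with 20 kb on either side, here called its window. The 10 windows held 747.5 kb in all and had a median length of 69.5 kb, against 64.1 kb for the windows of all protein-coding genes. The lists came from HepG2/C3A cells, a hepatocellular carcinoma line, profiled by CUT&Tag, in which an antibody guides a transposase to chromatin. The groups were control cells and cells given 10 mM sodium succinate for 48 hours, with 2 libraries each for trimethylated lysine 27 of histone H3 (H3K27me3) and for lysine succinylation with a pan-specific antibody (Ksu). All groups were the same line, grown in glucose-rich medium with serum. The succinate was dissolved in water, and the sample labels do not say what the control cells received, while the series' text names a vehicle. The labels call the replicates biological without saying how their cultures were kept apart.

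H3K27me3 is laid down by Polycomb repressive complex 2 and marks genes that are kept silent, among them many developmental transcription factors. Most T-box genes belong to heart, limb, pharynx or lymphocyte programmes rather than to hepatocytes. TBX3 is an exception, since it is active in the embryonic liver bud. Lysine succinylation is a chemical mark that draws on succinyl-CoA and occurs on histones as well as on metabolic enzymes.

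The number of peaks differed widely between libraries. The H3K27me3 lists held 5531 to 19133 peaks and covered 3.83% to 6.51% of the chromosomes. The Ksu lists held 76702 to 629903 peaks and covered 2.63% to 10.8%. Control replicate 1 had the most H3K27me3 peaks and the fewest Ksu peaks. Read depth is unknown for peak lists, and the IgG samples were not analysed here, so the part of depth and of antibody background in any result was not tested. As a check on the cell type, 10 of 10 liver genes (among them ALB, TTR and HNF4A) had no H3K27me3 peak over the gene body in any library. That held for 75% of all protein-coding gene bodies, so the check says little, and peaks lay in the flanks of APOB, HNF4A and FOXA2.

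Promoter sequences are shown for the T-box genes on which the H3K27me3 results turn: the gene with the most cover (TBX1), one with none (TBX18), and those whose promoter lay under peaks of 1 treatment only (TBX20, TBX4 and EOMES). Each is the 250 bases before the RefSeq start site, 5′ to 3′ on the gene's strand, from GRCh38.p14. For TBX4 and EOMES the start site used, and so the sequence shown, lies inside the gene body. Capitals mark CG dinucleotides, the sites of DNA methylation, which are dense at many Polycomb targets.
TBX1, chr22:19756453-19756702, strand +: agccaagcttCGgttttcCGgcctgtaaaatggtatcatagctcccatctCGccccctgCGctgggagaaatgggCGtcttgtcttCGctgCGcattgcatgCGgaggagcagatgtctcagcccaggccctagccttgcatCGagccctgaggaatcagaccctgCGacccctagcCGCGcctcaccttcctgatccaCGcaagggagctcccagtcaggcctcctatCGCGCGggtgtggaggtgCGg
TBX18, chr6:84764599-84764848, strand -: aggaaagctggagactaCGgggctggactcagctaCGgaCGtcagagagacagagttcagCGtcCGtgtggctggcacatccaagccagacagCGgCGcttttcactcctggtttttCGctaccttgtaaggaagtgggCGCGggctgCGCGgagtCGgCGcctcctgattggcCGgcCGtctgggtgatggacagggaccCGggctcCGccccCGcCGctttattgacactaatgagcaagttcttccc
TBX20, chr7:35254101-35254350, strand -: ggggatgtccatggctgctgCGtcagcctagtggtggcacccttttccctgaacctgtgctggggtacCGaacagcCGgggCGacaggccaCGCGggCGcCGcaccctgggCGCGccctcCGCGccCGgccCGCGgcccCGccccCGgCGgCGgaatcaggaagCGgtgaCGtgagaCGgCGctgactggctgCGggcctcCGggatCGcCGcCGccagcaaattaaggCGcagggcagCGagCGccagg
TBX4, chr17:61456238-61456487, strand +: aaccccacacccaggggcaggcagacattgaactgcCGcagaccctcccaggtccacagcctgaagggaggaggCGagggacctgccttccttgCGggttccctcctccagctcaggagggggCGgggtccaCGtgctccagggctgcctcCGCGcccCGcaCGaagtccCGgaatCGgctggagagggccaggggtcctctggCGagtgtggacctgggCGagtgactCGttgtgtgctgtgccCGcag
EOMES, chr3:27722324-27722573, strand -: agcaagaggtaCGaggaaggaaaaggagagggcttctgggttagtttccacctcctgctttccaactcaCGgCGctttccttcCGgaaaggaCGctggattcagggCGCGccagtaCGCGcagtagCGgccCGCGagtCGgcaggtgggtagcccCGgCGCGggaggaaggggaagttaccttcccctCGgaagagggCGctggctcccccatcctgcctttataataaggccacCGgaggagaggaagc
These promoters held 17 CG dinucleotides in TBX1, 20 in TBX18, 31 in TBX20, 15 in TBX4 and 19 in EOMES. The median over 22199 promoters of protein-coding genes was 16. It was 14 for the promoters under H3K27me3 peaks in all 4 libraries and 17 for those under none. The promoter of TBX18, never under a peak, was thus no poorer in CG than that of TBX1, always under one. The core sequence recognised by T-box proteins, searched as GGTGTGA on either strand, was in none of the 8 member promoters in the table, and in 2.57% of all promoters. H3K27me3 peaks lay over the promoters of TBX1, TBX5 (with 2 start sites) and TBX21 in all 4 libraries, as over 7.4% of all promoters. They lay over that of TBX18 in no library, as for 82.7% of all promoters.

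H3K27me3 split the 10 T-box genes into 3 sets. Cover in all 4 libraries was found at TBX1, TBX5, TBX21 and EOMES. TBX2, TBX4 and TBX20 had peaks in some libraries, and TBX3, TBX15 and TBX18 had none in any. So 4 of 10 windows were overlapped in all 4 libraries, where 20.8% of all protein-coding windows were, and 3 of 10 in no library, where 58% of all windows were. Presence was counted from an overlap of 1 bp. At 50% cover of the window in every library the count of 4 became 2, TBX1 and TBX21, where 4.45% of all windows were so covered. With equal numbers of peaks, each list being limited to its 5531 peaks of highest total signal, 4 of 10 windows were again covered in all libraries (18.6% of all windows) and 5 in none (72% of all windows).

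**Figure D1:**
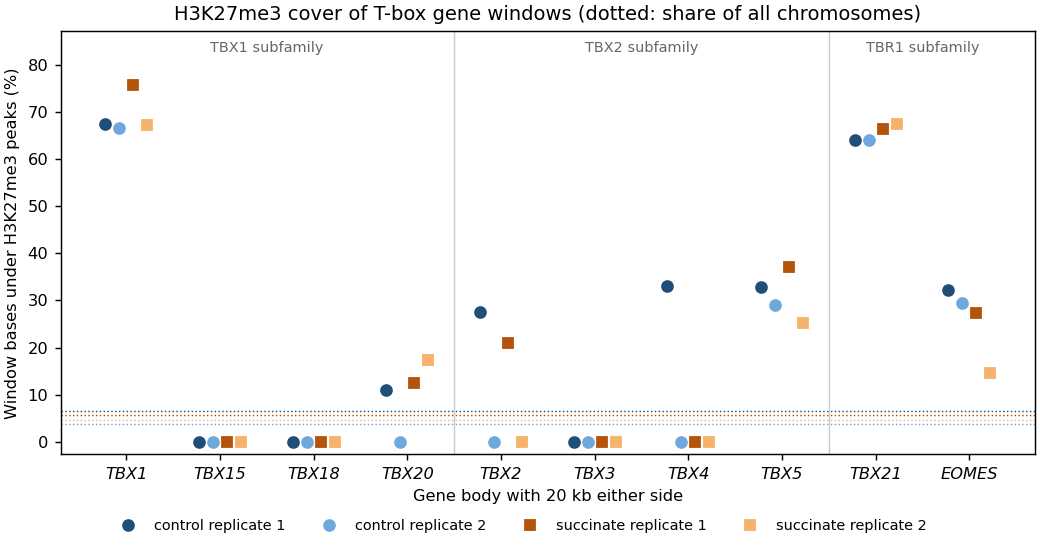
Share of each T-box gene window (gene body with 20 kb either side) under H3K27me3 peaks, in percent, for the 4 libraries; dotted lines give the share of all chromosomes covered in the library of the same colour. TBX1 and TBX21 lie above 60% in every library, TBX3, TBX15 and TBX18 at 0, and TBX2 and TBX4 lie above 0 in replicate 1 libraries only.

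In the TBX1 subfamily, TBX1 itself had the most H3K27me3. TBX1, on chromosome 22 from 19756703 to 19783593, patterns the pharyngeal arches and cardiac outflow tract. Its window was covered over 67.5% and 66.5% of its bases in the control libraries against 75.7% and 67.1% in the treated ones. The treatments overlapped, and the means were 67.0% ± 0.678 (SD, n = 2) and 71.4% ± 6.09 (SD, n = 2). Control replicate 1 was at 60.3% with equal numbers of peaks, and the treatments did not overlap. A single peak spanned the start site in every library, and it measured 50187 and 77351 bp without succinate and 85980 and 77993 bp with it. Its width lay at percentiles 96.4 to 98.8 of the widths in each list. Its upstream edge, at -29.9 kb from the start site in control replicate 1, was at -52.8, -55.3 and -53.1 kb in the other libraries (negative is upstream). The window also takes in 20371 bases of GNB1L, a neighbouring gene, of which 4080 were covered in control replicate 1 and 4127 in succinate replicate 1.

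TBX20, which is needed in cardiac muscle and the endocardium, was covered much less. It lies on chromosome 7 from 35202430 to 35254100. The covered share of its window was 11.1% and 0% in the controls, against 12.5% and 17.4% after succinate, so both succinate libraries were above both controls. The difference of 9.38 percentage points compares with a pooled SD of 6.07. The peaks gathered at the start site. In control replicate 1, peaks of 7039 and 3156 bp left the start site itself free, between -3.05 and 2.66 kb. In succinate, 1 peak of 11464 bp (replicate 1) and 1 of 15929 bp (replicate 2) ran across it. All 250 bases of the TBX20 promoter shown above were therefore under H3K27me3 in both succinate libraries and in neither control. That pattern was found at 86 of 22199 promoters (0.387%). The share counts the 82.7% of promoters under no peak in any library, which cannot show it, and TBX20 was printed because it does. The peaks were weak for their lists, with total signal at percentiles 34.5 and 19.6 in succinate. TBX20 was covered in succinate replicate 2 alone once each list was cut to the same length. Among the stronger 50% of each list, ranked by total signal, it was left only in control replicate 1, and the difference turned to -3.84 percentage points.

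TBX15 and TBX18, which act in limb and trunk skeleton and in the epicardium and urinary tract, had no H3K27me3 peak in any library. TBX15 lies on chromosome 1 from 118883047 to 118989510 and TBX18 on chromosome 6 from 84732496 to 84764598. TBX15 had the longest window of the 10, at 146 kb.

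The TBX2 subfamily lies as 2 gene pairs, TBX2 with TBX4 on chromosome 17 and TBX5 with TBX3 on chromosome 12, which arose by duplication of an ancestral pair. TBX5, on chromosome 12 from 114353911 to 114408442, directs forelimb and heart development and is mutated in Holt-Oram syndrome. Its window was covered over 32.9% and 29.0% in the controls and 37.1% and 25.3% with succinate. These values overlapped, and the difference of 0.256 percentage points was far below the pooled SD of 6.21. One peak ran across the start site in every library, with 31054 and 27439 bp in the control libraries against 35077 and 23900 bp in the treated ones. It began between -17.8 and -11.0 kb from the start site and ended 12.9 to 17.3 kb downstream, so the far end of the gene was free.

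TBX3, the partner of TBX5 and a regulator of limb, mammary and liver bud growth, had no H3K27me3 peak in any library. It lies on chromosome 12 from 114670255 to 114684175. Between the bodies of TBX5 and TBX3 are 261.8 kb, of which 10.8% and 10.2% were covered without succinate and 14.9% and 9.30% with it. Part of that cover was the TBX5 peak described above, which ran into this stretch in every library. The mark was thus present at one gene of the pair and between them, and absent from the peak lists at the other.

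At the pair on chromosome 17, H3K27me3 peaks were found in replicate 1 libraries only, the longer lists of each treatment. TBX2, a repressor that acts in heart and eye development, lies from 61399843 to 61409466. Its window was covered over 27.6% in control replicate 1 and 21.0% in succinate replicate 1, and at 0% in both replicate 2 libraries. TBX4, which specifies the hindlimb and lung mesenchyme, lies from 61452422 to 61485110. It had H3K27me3 only in control replicate 1, where 33.1% of its window and 73.7% of its gene body were covered. That library's peaks at TBX4 measured 12713 and 11363 bp. The wider one ran across the start site used here, at 61456488 inside the gene body. It began 1.96 kb downstream of the first base of the gene body and did not reach that base. A promoter covered in control replicate 1 alone was found at 3.68% of all promoters, among which 82.7% were under no peak in any library. Both genes were at 0% in all 4 libraries once the numbers of peaks were equal.

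In the TBR1 subfamily, TBX21 had nearly the same cover in all 4 libraries. TBX21 encodes T-bet, the factor that directs type 1 helper T cells and natural killer cells. It lies on chromosome 17 from 47733236 to 47746122. All of its gene body was covered in every library. The share of its window was 64.0% and 64.1% in the controls, against 66.4% and 67.3% after succinate, without overlap. The difference of 2.81 percentage points was above the pooled SD of 0.483, and the values were the same at equal numbers of peaks. The peaks measured 36974 and 36529 bp in the controls and 39106 and 48493 bp with succinate. Their upstream edges were at -23.1 and -22.6 kb from the start site in the controls and at -24 and -32.9 kb with succinate, and their downstream edges at 13.8 and 13.9 kb against 15.1 and 15.6 kb. The upstream edges all lay beyond the 20 kb flank, so the share of the window did not register where they fell. With 50 kb flanks the difference in H3K27me3 share was 8.37 percentage points. The highest signal was 1.51 kb downstream of the start site in all 4 libraries.

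EOMES, which acts in mesendoderm, trophoblast and cytotoxic lymphocytes, lies on chromosome 3 from 27715953 to 27722713. Its window was covered over 32.3% and 29.4% in the control libraries against 27.4% and 14.6% in the treated ones, lower in both succinate libraries. The difference of -9.88 percentage points compares with a pooled SD of 6.59. Over the gene body the shares were 83.6% and 100% without succinate and 46.6% and 33.1% with it, a difference of -51.9 percentage points with a pooled SD of 10.6. The groups differed at the start site. In control, a peak of 3555 bp (replicate 1) or 13737 bp (replicate 2) ran across it. With succinate the nearest cover downstream began at 3.22 and 4.13 kb. A further peak upstream of the start site was present in the replicate 1 library of each treatment. All 250 bases of the EOMES promoter were under H3K27me3 in both controls and in neither succinate library. That pattern was found at 30 of 22199 promoters (0.135%). Here too the share counts the 82.7% of promoters under no peak in any library, and EOMES was printed because it shows the pattern. Cover at the far end of the gene was present in every library. The peak there had its highest signal 10.1 kb downstream of the start site each time, beyond the end of the gene body. In control replicate 2 it was the same 13737 bp peak that ran across the start site. In control replicate 1 the peak on the start site had a total signal at percentile 38.0 of its list. With equal numbers of peaks it was not among those kept, the EOMES promoter was covered in control replicate 2 alone, and the window shares were 13.8% and 29.4% in the controls, against 16.6% and 14.6% after succinate, which overlapped.

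**Figure D2:**
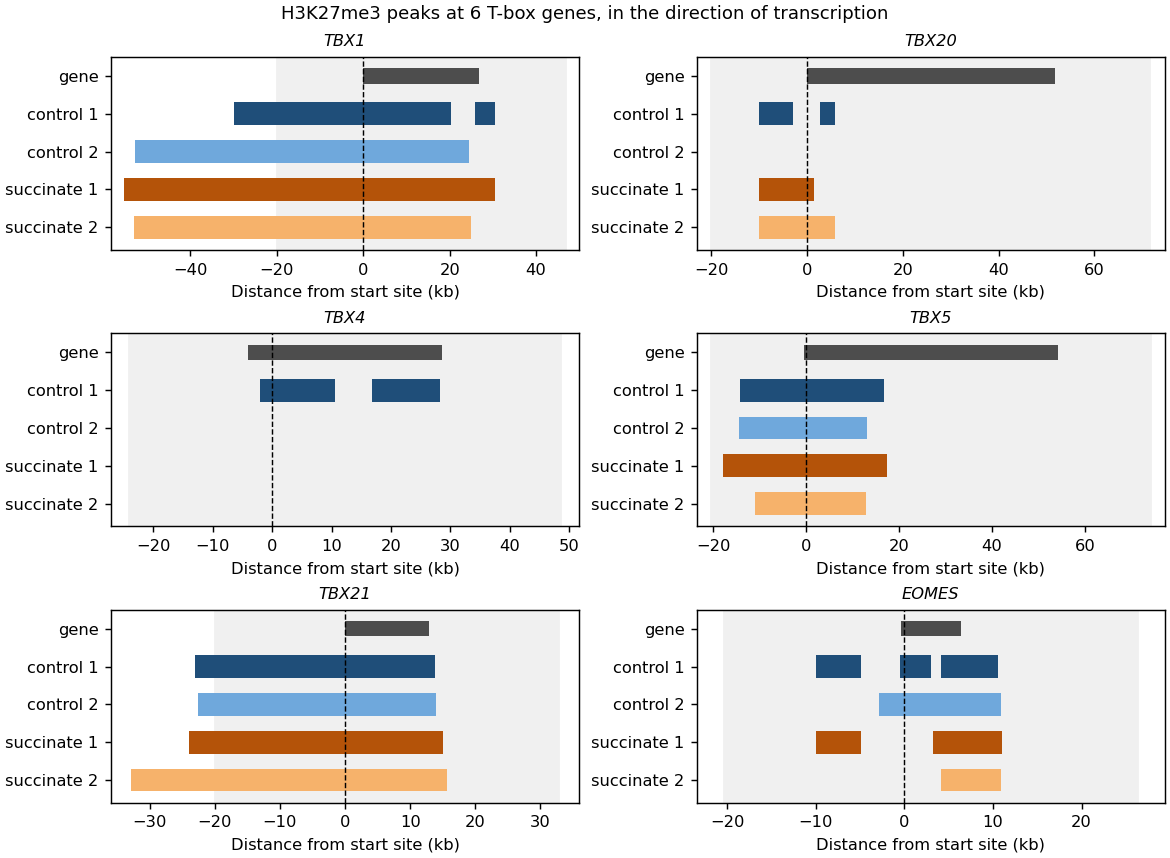
H3K27me3 peaks in each library at the 6 T-box genes that have peaks and a RefSeq start site in the table, by distance from the start site in kb along the direction of transcription; the dark bar is the gene body and the grey field the window. Peaks cross the start site of TBX1, TBX5 and TBX21 in all 4 libraries, that of TBX20 only in succinate and that of EOMES only in control.

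Counted over the family, 2 of 10 genes had more H3K27me3 in both succinate libraries than in both controls (TBX20 and TBX21) and 1 had less (EOMES). Over all protein-coding windows the shares were 9.28% and 2.01%. Of the windows with a peak in at least 1 library, 22.1% had more and 4.77% had less, and 7 T-box windows were of that kind. With equal numbers of peaks the genes with more were TBX1 and TBX21, where 12.2% of all windows had more, and 0 had less, where 1.47% did. Of the windows that still held a peak, 43.7% had more and 5.25% had less, and 5 T-box windows were of that kind. Without control replicate 2 the number with less was 3 (18.6% of all windows), and without succinate replicate 1 it was 2 (5.09%). Without succinate replicate 2 the number with more was 4 (18.4%). The median difference over the 10 genes and over all windows was 0.00 percentage points.

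Over the 10 windows together, H3K27me3 peaks covered 23.2% and 16.0% in the controls and 20.8% and 17.0% with succinate. The log2 difference in covered bases was -0.03 with a pooled SD of 0.30 (exact two-sided permutation test over 4 libraries, p = 1). With 2 libraries against 2 this test cannot give less than 0.333. The windows of all genes gave a log2 difference of 0.11. When the numbers of peaks were equal, the shares were 14.9% and 16.0% in the control libraries against 17.2% and 17.0% in the treated ones, without overlap, and the log2 difference was 0.15. The same setting gave 0.29 over the windows of all genes. Relative to the chromosomes, the T-box windows were covered 3.55 and 4.18 times as densely in control and 3.67 and 3.72 times in succinate. The windows of all protein-coding genes had ratios of 1.32 to 1.49. The log2 difference in the T-box ratio was -0.06 against a pooled replicate SD of 0.12 (p = 1 by the exact permutation test). With equal numbers of peaks the ratios were 3.88 and 4.28 against 3.86 and 3.72, a log2 difference of -0.10 without overlap, so the ratio was then lower with succinate while the covered bases were higher. All gene windows gave 0.04 in that setting. The difference was -0.36 with a common floor, where peaks had to reach the highest of the 4 lists' own lowest total signals, counted in signal steps.

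At the 4 genes covered in every library, the widest peak had a median width of 34014 and 31984 bp without succinate and 37092 and 36197 bp with it. The treatments did not overlap, and the log2 difference was 0.15 against a pooled replicate SD of 0.05 (p = 0.333 by the exact permutation test). The corresponding medians over the 4177 gene windows covered in every library were 19820 and 20070 bp in the controls, against 25470 and 27330 bp after succinate, a log2 difference of 0.40. Peaks were wider in both succinate libraries than in both controls at 2 of the 4 T-box genes (TBX1 and TBX21) and at 47.7% of all such windows.

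Ksu peaks were small and scattered over the same windows. There were 16 and 79 of them in the controls and 86 and 175 with succinate, with median widths of 1072 and 393 bp and of 551 and 503 bp. No Ksu peak touched any of the 8 member promoters in any library, while 23.8% of all promoters were touched in at least 1. That absence did not hold for the rest of the family, described below. A promoter of TBX22, TBX6, MGA, TBXT, TBX19 and TBR1 was touched in at least 1 library, and that of TBX10 in none. Of the 10 windows, 7 were overlapped in every library, where 54.7% of all windows were, and 0 in no library, where 2.36% were. The other 3, TBX1, TBX2 and TBX3, lacked a peak only in control replicate 1, which had the fewest peaks.

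**Figure D3:**
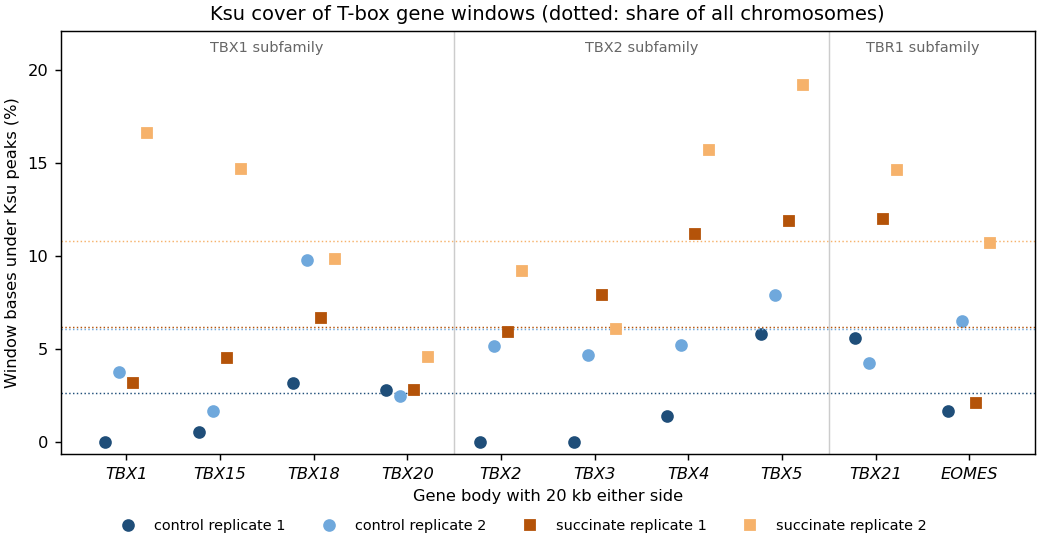
Share of each T-box gene window under Ksu peaks, in percent, for the 4 libraries; dotted lines give the share of all chromosomes covered in the library of the same colour. Succinate replicate 2 is the highest library at 9 of the 10 genes, and TBX20 stays between 2.50% and 4.55%.

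Averaged over the 4 libraries, TBX5 had the largest Ksu share of the 10 genes and TBX20 the smallest. The libraries differ in how much they cover, and by the mean of the controls alone TBX15, TBX1, TBX3 and TBX2 lay below TBX20. TBX5 was covered over 5.80% and 7.90% in the control libraries against 11.9% and 19.2% in the treated ones, by 5, 15, 20 and 33 peaks. Both succinate libraries were above both controls, and the difference of 8.68 percentage points compares with a pooled SD of 3.77. The widest Ksu peak at TBX5 lay in a different place in each library, from 114364618 to 114366108 and from 114372375 to 114373238 in control, and from 114416581 to 114417467 and from 114360733 to 114362717 in succinate. TBX20 was covered over 2.79% and 2.50% without succinate and 2.78% and 4.55% with it, with overlap between treatments.

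TBX4 and TBX21 also had more Ksu in both succinate libraries. TBX4 had 1.42% and 5.21% in the controls, against 11.2% and 15.7% after succinate. TBX21 had 5.58% and 4.24% in the controls and 12% and 14.6% with succinate. In these 2 genes the difference, 10.1 and 8.37 percentage points, was large against the pooled SDs of 2.95 and 1.49. TBX4 stayed apart with equal numbers of peaks, while TBX21 had 5.58% and 1.01% against 6.77% and 4.25% and TBX5 had 5.80% and 1.47% against 1.32% and 7.57%, both with overlap. TBX15 had 0.560% and 1.68% in the control libraries against 4.53% and 14.7% in the treated ones.

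Both succinate libraries had more Ksu than both controls at 6 of 10 genes (TBX15, TBX2, TBX3, TBX4, TBX5 and TBX21), and no gene had less. Over all protein-coding windows 65.9% had more and 0.25% had less, so the T-box count was close to the background. Of the windows with any Ksu peak the shares were 67.5% and 0.256%. TBX1, TBX18, TBX20 and EOMES overlapped between treatments. For TBX1 the shares were 0% and 3.77% without succinate and 3.17% and 16.6% with it, and for EOMES 1.68% and 6.48% against 2.10% and 10.7%. TBX18 had 3.18% and 9.80% in the controls, against 6.67% and 9.86% after succinate. With 76702 peaks in each list, 4 genes had more (TBX1, TBX2, TBX4 and TBX15), where 27.3% of all windows did, and 0 had less, where 6.25% did. Of the windows that then held a peak, 30.7% had more and 7.01% less. In that setting 4 of the 10 genes had Ksu in all libraries, where 28.7% of all windows did, and 0 in none, where 10.9% did. With all peaks, the number of genes with more Ksu was 3 over gene bodies alone, where 46.6% of all genes had more, and 10 without succinate replicate 1, where 91.7% did.

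Over the 10 windows together Ksu peaks covered 2.13% and 4.81% in the controls and 6.69% and 12.6% with succinate, without overlap. The log2 difference in covered bases was 1.52 against a pooled replicate SD of 0.74 (p = 0.333 by the exact permutation test, its smallest value), and the value over all gene windows was 1.41. The covered length of the lists moved with it. Divided by the share of the chromosomes, the T-box cover was 0.81 and 0.79 in the control libraries against 1.09 and 1.17 in the treated ones, a log2 difference of 0.49 against a pooled replicate SD of 0.05 (p = 0.333 by the exact permutation test). All gene windows gave 0.81 and 0.83 without succinate and 1.05 and 1.08 with it, a log2 difference of 0.38. The differences with equal numbers of peaks were 0.91 for the T-box windows and 0.45 for all gene windows, and the T-box ratio in control replicate 2 was then 0.498. The difference between the T-box windows and all windows was not tested. With a common floor control replicate 2 had no Ksu peak in any T-box window.

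**Figure D4:**
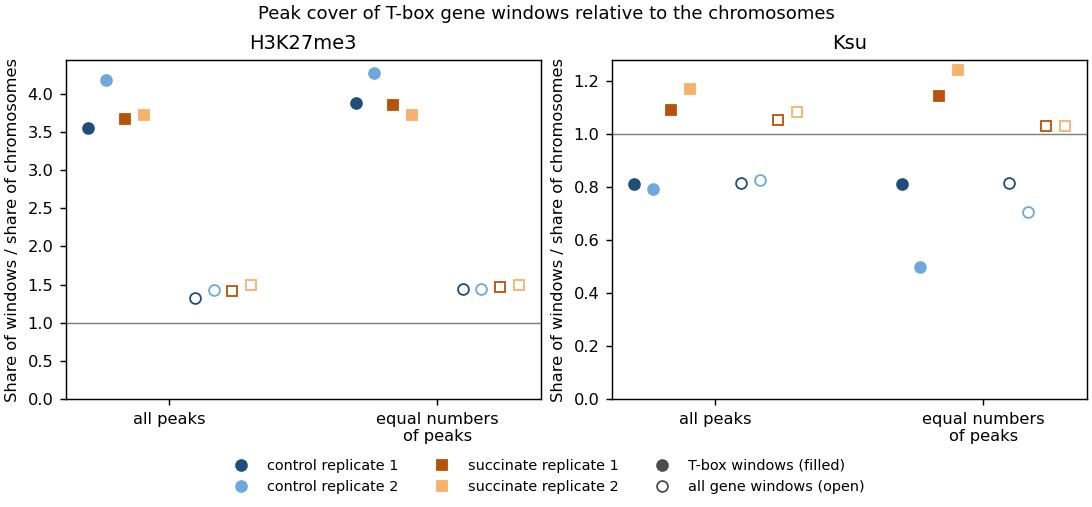
Share of window bases under peaks divided by the share of chromosome bases under peaks, per library, for the T-box windows (filled) and the windows of all protein-coding genes (open), with all peaks and with equal numbers of peaks. H3K27me3 lies above 3.5 at the T-box windows in every library with no order by treatment among all peaks, and Ksu lies below 1 in control and above 1 in succinate for both sets of windows.

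Few Ksu peaks recurred at the same place. The 4 lists merged into 282 regions in the T-box windows, of which 230 (81.6%) came from 1 library only, against 76.6% over the chromosomes. Regions found in both succinate libraries and no control numbered 15 (5.32%, against 5.39% over the chromosomes). The reverse pattern numbered 1 (0.355%, against 0.629%). The replicate 2 libraries alone shared 18 (6.38%, against 8.49%). Present in all 4 libraries were 2 regions (0.709%, against 0.546%). One lay in the TBX5 gene body on chromosome 12 from 114355596 to 114356820. The other, on chromosome 6 from 84782900 to 84786463, began in the upstream flank of TBX18 and ran past the window's end at 84784598. Its 3564 bp exceed the widest Ksu peak at TBX18 in any library, 1619 bp, so it joins several peaks. Whether all 4 libraries covered the same bases there was not tested.

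To see where the marks met, the T-box window bases under H3K27me3 peaks were checked for Ksu peaks in the library with the same label for treatment and replicate. The Ksu share of those bases was 3.85% and 6.13% in the controls, against 8% and 13.9% after succinate, without overlap. The log2 difference was 1.12 against a pooled replicate SD of 0.52 (p = 0.333 by the exact permutation test). In the remaining bases of the windows the Ksu share was 1.61% and 4.56% in the controls and 6.34% and 12.3% with succinate. With all peaks, the share in T-box H3K27me3 was thus above that of the rest of the windows in each library. It was below the share in all H3K27me3 peaks of the chromosomes, which was 4.26% and 6.79% in the control libraries against 12.6% and 16.3% in the treated ones. With equal numbers of peaks the difference between treatments turned to -0.26, with 4.73% and 0.882% without succinate and 3.26% and 0.898% with it. In that setting the replicate 2 values lay below the Ksu share of the whole windows, which was 0.921% in control and 2.83% in succinate. The replicate 1 values lay above that share, which was 2.13% in control and 2.52% in succinate.

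The rest of the family was described from a list of 7 further T-box genes. TBXT, TBR1 and TBX10 had H3K27me3 in all 4 libraries, as 20.8% of all windows did, and TBX22, TBX6, MGA and TBX19 in none, as for 58%. TBX10 had little of it, with 7.99% and 0.377% in the controls and 12.5% and 1.45% with succinate. Its gene body was at 0% in both replicate 2 libraries. TBXT encodes brachyury, the mesoderm factor, and its window was covered over 36.2% and 39.0% in the controls, against 40.7% and 28.0% after succinate. TBR1, a factor of cortical neurons, had 28.8% and 12.1% in the controls and 24.4% and 12.5% with succinate. The treatments overlapped at both genes. MGA, a broadly expressed partner of MAX, had no H3K27me3 peak in a window of 189 kb. None of the 7 had more or less H3K27me3 in both succinate libraries than in both controls. Among equal numbers of peaks 2 had more, TBX10 and TBR1, the latter with 0% and 12.1% against 24.4% and 12.5%. For Ksu, 3 of the 7 had more and 1, TBX6, had less, where 65.9% and 0.25% of all windows did.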

How the data were processed

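The deposited files are SEACR peak lists, 1 per library, on build hg38, per the submitters' processing notes. The stringent mode is stated in the file names. The values per peak are the authors' total and highest signal, deposited on a scale that differs between libraries. The aligner, scaling and threshold are not given in the sources used here. Signal was therefore used only within a list, or in steps (the highest signals were whole multiples of 1 step per library, within 0.02). Of 12 samples, 8 had files here, and the 4 IgG samples were not analysed here.

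Covered bases were counted with Python 3.11.15, NumPy 2.4.6 and pandas 2.3.3 over RefSeq GRCh38.p14 gene windows on 24 chromosomes, and the code was tested on simulated peaks. Shares of single genes are compared in percentage points, and summed covers as log2 ratios with exact permutation tests over 6 arrangements. Each p-value is the share of arrangements with a difference at least as large as the one seen, and concerns these libraries only. A gene had more or less when both succinate libraries lay outside both controls. Start sites come from the RefSeq promoter table, which matched 7 of the 10 genes. All 10 genes are named by rule, as are the widest H3K27me3 peaks, the Ksu peaks at the genes with the largest and smallest Ksu share, and the promoters printed. Members, lists and settings were chosen with earlier results of these data known. Alternatives were other peak sets and windows, each replicate left out, and a replicate block.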

Additional observations from a re-analysis of the deposited data

How the results depend on the processing

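Over 13 summary results, 148 alternative values were computed, of which 11 changed direction and 22 moved by more than the pooled SD (counts of genes by more than 1.5 times). The other 115 stayed within those limits, which are wide for some results: H3K27me3 covered bases at -0.24 with the top 50% of peaks count among them. Of 220 alternative values for single genes (added after the data were seen), 191 stayed within the pooled SD. Unlike for the summary results, a change of sign within that SD was counted as staying, so the 191 include some. TBX2 H3K27me3 went from -3.29 to 10.5 percentage points without control replicate 1. EOMES Ksu went from 2.32 to -1.98 percentage points without succinate replicate 2. With exact permutation tests no p under 0.05 was possible, so no call could be gained or lost. The lists hold no read depth, and the part of depth in these results was not tested.

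Log2 differences of H3K27me3 covered bases became 0.15 at equal numbers of peaks, 0.14 with a common floor and 0.039 with 50 kb flanks. For H3K27me3 relative to the chromosomes they were -0.28 with the top 50% of peaks, -0.36 with a common floor, -0.25 over gene bodies and 0.012 with 50 kb flanks. The widest H3K27me3 peak gave 0.24 both with the top 50% and with a common floor. In these settings 3 genes instead of 4 were covered in every library, and the median was the TBX21 peak each time. The rise from 0.15 thus came with a change in the genes compared. Ksu relative to the chromosomes gave 0.56 with the top 50% and 0.91 at equal numbers. The widest Ksu peak, with all peaks, had medians of 1186 and 740 bp in the controls and 1258 and 1073 bp with succinate. These came from the 7 genes with Ksu in every library, and the treatments overlapped. The log2 difference was 0.31 against a pooled replicate SD of 0.36 (p = 0.667 by the exact permutation test). It became 0.78 after merging within 1 kb, -0.062 over gene bodies and -0.015 with 50 kb flanks. Ksu cover of H3K27me3 bases became -0.26 at equal numbers. TBX20 H3K27me3 turned to -3.84 percentage points with the top 50%.

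Genes with less H3K27me3 in succinate numbered 0 at equal numbers (1.47% of all genes) and 0 with a common floor (0.629%), and those with more H3K27me3 numbered 1 over gene bodies (3.71%). H3K27me3 in all libraries at 50% cover was found at 2 genes (4.45%) and Ksu at 0 (0%). Genes with Ksu in all libraries numbered 4 at equal numbers (28.7%), 0 with a common floor (2.62%) and 3 over gene bodies (31.7%). Genes with more Ksu in succinate numbered 1 with a common floor (13.5%) and 3 over gene bodies (46.6%). Beyond what each setting removes by construction, the cause was not tested.

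Leaving out each replicate gave log2 differences of -0.30 to 0.23 for H3K27me3 covered bases, -0.18 to 0.057 relative to the chromosomes, 0.11 to 0.20 for its widest peak, 0.93 to 2.11 for Ksu covered bases, 0.44 to 0.54 for Ksu relative to the chromosomes, -0.030 to 0.65 for its widest peak and 0.72 to 1.52 for Ksu cover of H3K27me3. The counts of genes ranged from 4 to 5 with H3K27me3 in all libraries, 2 to 4 with more and 1 to 3 with less H3K27me3, 7 to 10 with Ksu in all libraries and 6 to 10 with more Ksu, and stayed at 0 with less Ksu.

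With the replicate number as a block the log2 differences were unchanged by construction, for example 1.52 for Ksu covered bases (exact sign permutation p = 0.5, the smallest possible). Deviations of same-numbered libraries correlated at 0.277 over 8421 windows for H3K27me3 and 0.132 over 19564 for Ksu. Both are positive, but with 2 pairs and no label that ties same-numbered libraries together, whether the numbers pair them was not established. With a common floor no log2 value could be computed for Ksu, since control replicate 2 had no Ksu peak in the windows.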

Other observations

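H3K27me3 was also read at genes of the cell types that T-box factors direct. The 5 cardiac genes examined (NKX2-5, MYH6, MYL7, TNNT2 and ACTC1) were overlapped in all 4 libraries, where 20.8% of all protein-coding windows were. MYH6, the atrial myosin heavy chain, was covered over 96.8% and 100% of its window in control and 100% in both succinate libraries. NKX2-5, a cardiac homeobox factor, had 87.1% and 68.2% in the controls, against 84.0% and 68.6% after succinate. Among 5 lymphocyte genes, CD3E and CD3D were covered in every library, CD2 in the replicate 1 libraries only, and PTPRC and NKG7 in none. CD3E, a chain of the T cell receptor complex, had 38.7% and 30.5% without succinate and 59.1% and 44.2% with it, higher in both treated libraries, also with equal numbers of peaks. CD3D had 28.7% and 38.6% against 39.7% and 35.6%, with overlap. Of the 10 liver gene windows, 1 had more H3K27me3 in both succinate libraries (APOB) and 2 had less (HNF4A and FOXA2), where 9.28% and 2.01% of all windows did, and these peaks lay in the flanks. APOB, the apolipoprotein of liver-made lipoproteins, had 14.7% and 11.3% without succinate and 16.2% and 16.3% with it. FOXA2, a hepatic pioneer factor, had 31.4% and 10.8% against 0% in both treated libraries, and was at 0% in all 4 with a common floor. HNF4A had only 3.81% and 3.12% against 2.98% and 0%. It was at 0% in all 4 libraries with equal numbers of peaks and with a common floor. Liver genes with less H3K27me3 then numbered 1 (1.47% of all genes) and 0 (0.629%). No test was made of these lists.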
